A study of Mus musculus with 6 samples.

Results

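The genes examined here encode nuclear subunits of the mitochondrial respiratory chain and of the ATP synthase. A gene was taken in when its annotated symbol began with Ndufa, Ndufb, Ndufc, Ndufs or Ndufv followed by a number or by ab, with Sdha to Sdhd, with Uqcr, with Cox4 to Cox8 or with Atp5, and when a probe set on the array named that gene alone. This rule took in 82 of the 19938 genes on the array, of which 34 belong to complex I, 4 to complex II, 8 to complex III, 19 to complex IV and 17 to complex V, the ATP synthase. Each gene was represented by its brightest probe set over all 6 arrays. Of the 82 genes, 78 were bright enough to be tested, and Ndufs5, Cox7a1, Cox7b2 and Ndufa4l2 were not. Symbols that fit the rule but had no probe set naming them alone in the annotation used here, many of them pseudogenes, were not tested.

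RNA came from adherent peritoneal cells of C57BL/6 mice aged 8 weeks, in 2 groups of 3 arrays. The mice labelled KLF2∆/∆ carried a floxed Klf2 gene together with the LysMCre/Cre alleles, and the LysMCre/Cre mice carried the Cre alleles without the floxed gene. The Cre recombinase is driven from the lysozyme gene Lyz2, which myeloid cells express, so other cell types in the dish are not the target of the deletion. All mice were injected with 2 ml of thioglycolate broth, which irritates the peritoneum and recruits leukocytes, and cells were collected 72 h later. The cells were left to attach for 4 h, rested for 24 h and then given lipopolysaccharide (LPS), a component of bacterial outer membranes that activates macrophages, at 100 ng/ml for 6 h. No cells without LPS were analysed here, and no sorting step is described. The design text speaks of mice in 3 pairs, but the labels neither tie an array to a single mouse nor state which arrays form a pair, so the spread behind the p-values is that between arrays and may be technical.

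The respiratory chain passes electrons from NADH through complex I, or from succinate through complex II, to ubiquinone, and on through complex III and cytochrome c to oxygen at complex IV. Complexes I, III and IV pump protons across the inner mitochondrial membrane, and complex V uses the returning protons to make ATP. Macrophages exposed to LPS are known to shift their energy metabolism towards glycolysis and to turn some respiratory complexes towards the production of reactive oxygen species.

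Values are log2 intensities after the authors' RMA normalization, and a change is the mean of the arrays labelled KLF2∆/∆ minus the mean of the LysMCre/Cre arrays on that scale. A gene was called when its adjusted p from limma, over 12649 tested genes, was below 0.05. The array medians lay between 7.85 and 7.90, and arrays correlated across genes at Pearson's r of 0.981 to 0.986 between groups and 0.994 to 0.997 within them. The label check went against the labels. Klf2 measured 9.10, 9.25 and 9.21 in the arrays labelled KLF2∆/∆, against 8.88, 8.97 and 8.94 in the LysMCre/Cre arrays. All arrays labelled KLF2∆/∆ were thus above all LysMCre/Cre arrays, by 0.26 ± 0.064 (SE; limma adjusted p = 0.00398; exact two-sided permutation p = 0.1, the smallest that 3 against 3 arrays allow). Without moderation of the variances the adjusted p was 0.0522. The sources used here do not say where the Klf2 probes lie relative to the floxed part, so every direction below belongs to arrays named by their label. Lyz2 averaged 10.25 ± 0.072 in arrays labelled KLF2∆/∆ and 10.25 ± 0.070 in LysMCre/Cre arrays (SD, n = 3 each), a difference of 0.0050 ± 0.057 (SE; adjusted p = 0.964). Both groups carry the Cre alleles of this gene, so its level does not check the labels.

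Across the subunit genes the changes were small and mostly downward in the arrays labelled KLF2∆/∆. Of the 78 tested genes, 23 fell (29.5%) and 0 rose, while 55 were not called. Over all tested genes 16.2% were called lower and 13.6% higher, 29.8% in either direction. At an unadjusted p below 0.05, limma gave 35 subunit genes lower (44.9%) and 2 higher (2.56%), with 20.3% lower and 17.9% higher over all tested genes. Without moderation of the variances 9 subunit genes were called lower and 0 higher, with 3 of the 9 in complex I, 1 in complex II, 0 in complex III, 1 in complex IV and 4 in complex V. That setting, given again below, called 2124 of all 12649 tested genes, with both directions counted together. The median change was -0.12 among the 78 genes and 0.0019 among all tested genes, and 63 of the 78 changes (80.8%) lay below 0, compared with 49.5% over all tested genes. The called changes ran from 1.10-fold lower for Atp5a1 to 1.30-fold lower for Atp5l. The 3 arrays labelled KLF2∆/∆ lay below the 3 LysMCre/Cre arrays without overlap for 31 genes (39.7%; 21.4% of all tested genes) and above them for 2, Uqcrc2 and Cox8b (2.56%; 19.3% of all tested genes).

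**Figure D1:**
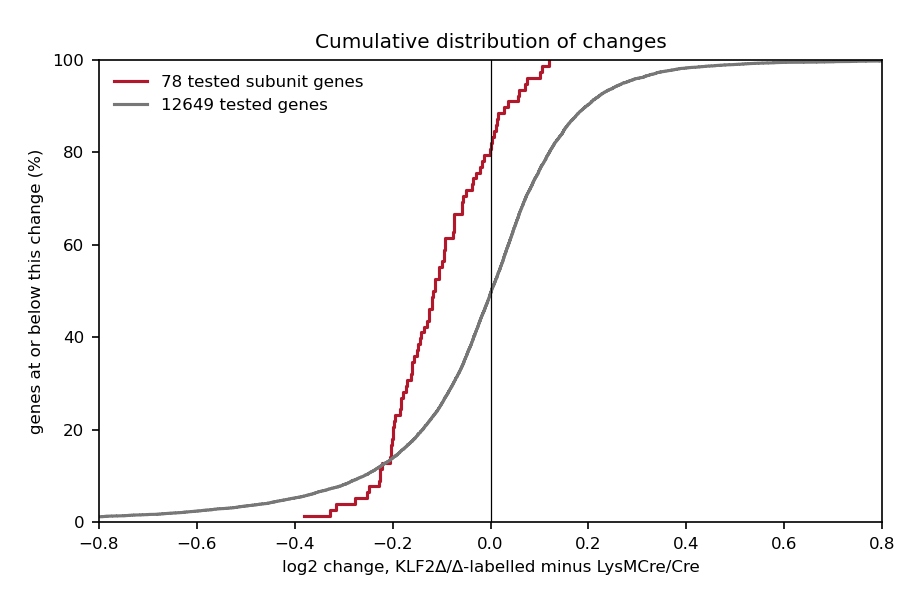
Cumulative share of genes (vertical axis, %) at or below each log2 change, KLF2∆/∆-labelled minus LysMCre/Cre (horizontal axis, drawn between -0.8 and 0.8), for the 78 tested subunit genes (red) and all 12649 tested genes (grey). The subunit curve reaches 80.8% at a change of 0, where the grey curve stands at 49.5%, and it ends at 0.12, while the lowest subunit change is -0.38.

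The shift was present in each array labelled KLF2∆/∆ and was smallest in the second. Relative to the LysMCre/Cre means, the median over the 78 genes was -0.15, -0.063 and -0.14 in KLF2∆/∆-labelled replicates 1, 2 and 3, against 0.0084, 0.013 and -0.021 in the LysMCre/Cre replicates. The same median over all tested genes was -0.014, 0.011 and 0.0070 in the arrays labelled KLF2∆/∆ and lay between -0.0079 and 0.0055 in the others. Replicate 2 of the arrays labelled KLF2∆/∆ had the highest value of its group in 16 of the 23 called genes and replicate 1 the lowest in 15. Leaving out single arrays moved the count of called genes. It was 34 without KLF2∆/∆ replicate 2, and 13 without LysMCre/Cre replicate 1 and also 13 without LysMCre/Cre replicate 2. A subunit gene was called higher in 2 of the 6 fits that left out an array, namely Ndufs4 without KLF2∆/∆ replicate 1 (0.16; adjusted p = 0.0292) and Atp5md without KLF2∆/∆ replicate 3 (0.19; adjusted p = 0.0245). Of the 23 called genes, 11 stayed called whichever array was left out: Ndufa7, Sdhc, Uqcr11, Ndufa4, Cox4i1, Atp5c1, Atp5g1, Atp5g2, Atp5g3, Atp5k and Atp5l.

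Markers of other cells in the adherent fraction moved with the groups as well. For comparison, 16.2% of all tested genes were called lower and 13.6% higher. Of 13 tested fibroblast and mesothelial markers, 11 fell, with a median change of -0.68. Sums of linear intensity, here and below, take in all listed genes with a probe set, also those below the filter. For the 14 such genes of this list the sum was 11780 to 13010 in the arrays labelled KLF2∆/∆ and 21180 to 21300 in the LysMCre/Cre arrays. Among 9 tested markers of resident large peritoneal macrophages, 8 fell (median -0.70). Sums over 10 genes were 3827 to 4097 in the arrays labelled KLF2∆/∆ and 9304 to 9648 in the LysMCre/Cre arrays. All 4 tested mast cell markers fell (median -0.31), and the defining genes Kit, Fcer1a, Mcpt4 and Cma1 lay below the filter. Sums over 8 genes were 2645 to 2730 in the arrays labelled KLF2∆/∆ and 3119 to 3245 in the others. Of 5 tested neutrophil markers 3 rose (median 0.26), while S100a8, Mpo, Ly6g, Cxcr2, Ngp and Ltf lay below the filter. Sums over 11 genes were 6233 to 6511 in the arrays labelled KLF2∆/∆ and 4978 to 5285 in the others. The brightest, Csf3r, weighs most in these sums and averaged 12.30 in arrays labelled KLF2∆/∆ and 11.92 in LysMCre/Cre arrays. General macrophage markers gave 8 higher and 2 lower of 13 (median 0.19; sums of 71340 to 72470 in the arrays labelled KLF2∆/∆ and 64750 to 65290 in the others). Of 4 B cell, 2 T and NK cell and 1 eosinophil markers limma called 0, at an unadjusted p below 0.05 as well and also without moderation of the variances, and 1 of 3 dendritic cell markers fell. The lists did not order the arrays alike. Median deviations in KLF2∆/∆-labelled replicates 1, 2 and 3 were -0.69, -0.62 and -0.83 for fibroblast and mesothelial markers, -0.82, -0.69 and -0.68 for resident macrophage markers, and -0.25, -0.41 and -0.34 for mast cell markers. The smallest fall was in replicate 2 for fibroblast and mesothelial markers, as for the subunit genes. It was in replicate 3 for resident macrophage markers and in replicate 1 for mast cell markers. The part of these cell populations in the subunit changes was not tested, and in bulk RNA fewer cells of a type and less RNA per cell cannot be told apart.

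**Figure D2:**
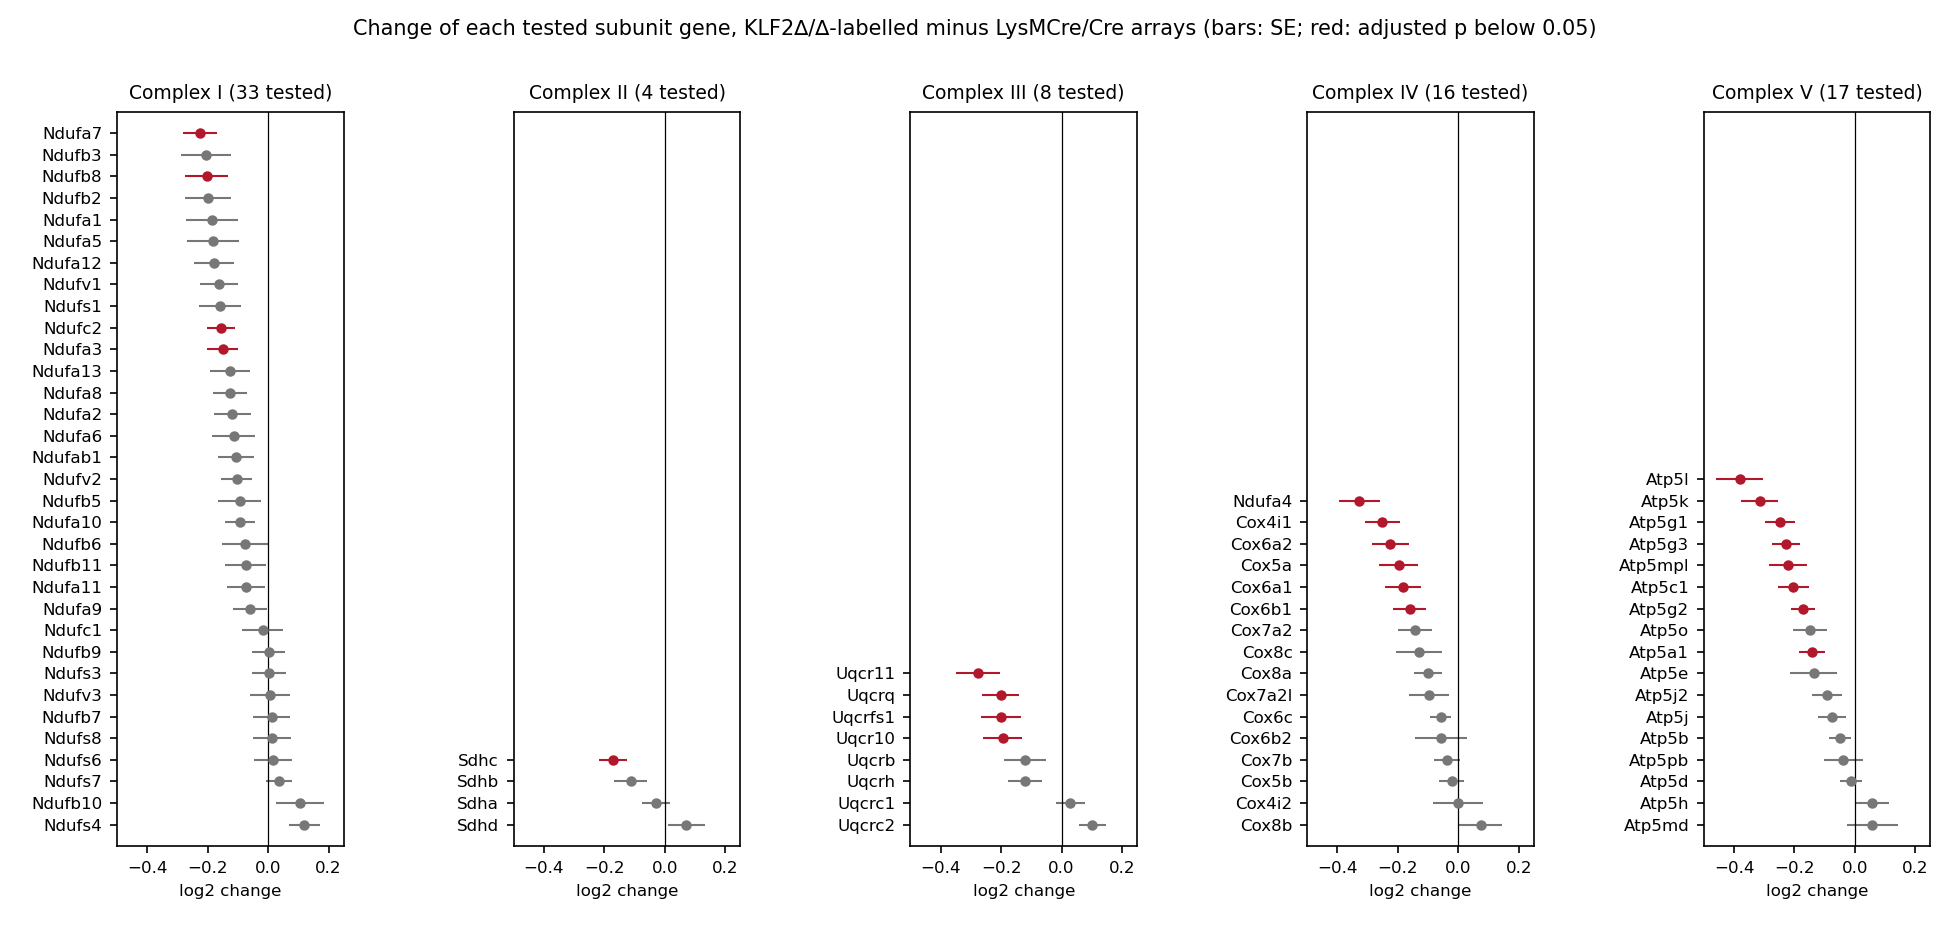
Change of each of the 78 tested subunit genes (log2, KLF2∆/∆-labelled minus LysMCre/Cre arrays, horizontal axis; bars are standard errors from limma), sorted within complexes I to V, with the 23 called genes in red and the others in grey. All called genes lie left of 0, 4 of 33 in complex I, 1 of 4 in complex II, 4 of 8 in complex III, 6 of 16 in complex IV and 8 of 17 in complex V. The share called lower over all tested genes was 16.2%.

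Complex I, NADH dehydrogenase, oxidises NADH and is the largest enzyme of the chain. Of its 33 tested genes 4 fell in the arrays labelled KLF2∆/∆ (12.1%, against the 16.2% of all tested genes), with a median change of -0.10. Changes below 0 numbered 24 (72.7%, beside 49.5% of all tested genes). The groups did not overlap for 8 of the 33, all lower (24.2%, beside 21.4% of all tested genes). The catalytic core subunits, which carry the flavin and the iron-sulphur clusters and dock ubiquinone, are represented by Ndufv1, Ndufv2, Ndufs1, Ndufs3, Ndufs7 and Ndufs8. By limma 0 of these 6 were called, 2 were lower at an unadjusted p below 0.05, and 0 were called without moderation of the variances. Their median change was -0.051. The changes of Ndufv1, whose product binds NADH, and of Ndufs1 were -0.16 ± 0.062 (SE; adjusted p = 0.0564) and -0.16 ± 0.069 (adjusted p = 0.0915), and both overlapped between groups. Ndufs7, which had the brightest probe set of the complex, measured 12.37, 12.46 and 12.49 in the arrays labelled KLF2∆/∆, against 12.49, 12.35 and 12.37 in the LysMCre/Cre arrays. The groups overlapped, with a change of 0.037 ± 0.043 (SE; adjusted p = 0.60).

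The accessory subunits surround that core and help to assemble and stabilise the enzyme. Of the 27 tested, 4 fell, a smaller share than the 16.2% of all tested genes. Ndufa7 had values of 9.67, 9.64 and 9.72 in the arrays labelled KLF2∆/∆, against 9.86, 9.94 and 9.91 in the LysMCre/Cre arrays. The groups were apart, with a fall by 0.23 ± 0.056 (SE; adjusted p = 0.00394). Ndufc2, a small membrane subunit, measured 11.77, 11.88 and 11.72 in arrays labelled KLF2∆/∆ and 11.98, 11.96 and 11.90 in LysMCre/Cre arrays. Here the highest array labelled KLF2∆/∆ came close to the lowest LysMCre/Cre array without reaching it, and the gene fell by 0.16 ± 0.046 (SE; adjusted p = 0.0132). Ndufa3 measured 10.24, 10.28 and 10.27 in arrays labelled KLF2∆/∆ and 10.46, 10.38 and 10.40 in LysMCre/Cre arrays. Again no values crossed, and it fell by 0.15 ± 0.051 (SE; adjusted p = 0.0312). Ndufb8, another membrane subunit, was the fourth called gene, with a fall of 1.15-fold (adjusted p = 0.0316). With single arrays left out, the adjusted p reached 0.0664 for Ndufc2 without LysMCre/Cre replicate 1. It rose above 0.05 for Ndufa3 (at most 0.174) and Ndufb8 (at most 0.165) without any 1 of the LysMCre/Cre arrays or without KLF2∆/∆ replicate 1. The count for the complex was between 1 and 10 over these 6 fits. The 23 accessory genes that were not called had changes between -0.21 for Ndufb3 and 0.12 for Ndufs4.

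Complex II, succinate dehydrogenase, is shared with the tricarboxylic acid cycle and has 4 subunits. Sdhc, one of the membrane anchors that hold the haem and the ubiquinone site, had the brightest probe set of the 4. It measured 11.06, 11.16 and 11.12 in the arrays labelled KLF2∆/∆, against 11.28, 11.30 and 11.28 in the LysMCre/Cre arrays. All arrays labelled KLF2∆/∆ lay lower, and Sdhc fell by 0.17 ± 0.046 (SE; adjusted p = 0.00691). Sdhb, the iron-sulphur subunit, had values of 9.93, 10.03 and 10.01 in arrays labelled KLF2∆/∆ and 10.06, 10.16 and 10.09 in LysMCre/Cre arrays. These did not overlap either, but the change of -0.11 ± 0.056 (SE) missed the threshold (adjusted p = 0.143). Sdha, the flavoprotein that oxidises succinate, had a change of -0.029 ± 0.047 (SE; adjusted p = 0.71), and Sdhd, the other anchor, one of 0.070 ± 0.061 (SE; adjusted p = 0.448). The difference in change between Sdhc and its partners was not tested.

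Complex III, the cytochrome bc1 complex, hands electrons from ubiquinol to cytochrome c. Of its 8 tested genes 4 fell in the arrays labelled KLF2∆/∆ (50%, beside 16.2% of all tested genes) and the median change was -0.16. Without moderation of the variances 0 of the 8 were called, so each of these calls depends on it. The 4 called genes encode the Rieske iron-sulphur protein, Uqcrfs1, and 3 small subunits. Uqcr11 measured 8.65, 8.93 and 8.85 in arrays labelled KLF2∆/∆ and 9.08, 9.06 and 9.12 in LysMCre/Cre arrays. Replicate 1 of the arrays labelled KLF2∆/∆ was the lowest, no values crossed, and the gene fell by 0.28 ± 0.072 (SE; adjusted p = 0.00553). Uqcrq, which sits close to cytochrome b, measured 9.74, 9.83 and 9.85 in arrays labelled KLF2∆/∆ and 10.05, 10.07 and 9.91 in LysMCre/Cre arrays. It fell by 0.20 ± 0.060 (SE; adjusted p = 0.0141). Uqcr10 measured 8.68, 8.80 and 8.71 in arrays labelled KLF2∆/∆ and 8.91, 8.89 and 8.97 in LysMCre/Cre arrays. Its fall was 0.19 ± 0.064 on the log2 scale (SE; adjusted p = 0.0262), and that of Uqcrfs1 was 1.15-fold (adjusted p = 0.0296).

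The large core proteins of complex III, which face the matrix, were not called and had changes above 0. Uqcrc2 measured 11.38, 11.44 and 11.35 in the arrays labelled KLF2∆/∆, against 11.31, 11.25 and 11.30 in the LysMCre/Cre arrays. All arrays labelled KLF2∆/∆ lay above the others, with a change of 0.10 ± 0.045 (SE) that missed the threshold (adjusted p = 0.0983). Uqcrc1 had a change of 0.028 ± 0.048 (SE; adjusted p = 0.727). Uqcrb, with the brightest probe set of the complex, measured 11.67, 11.53 and 11.24 in arrays labelled KLF2∆/∆ and 11.60, 11.61 and 11.59 in LysMCre/Cre arrays. The arrays labelled KLF2∆/∆ were widely spread and overlapped the others (change -0.12 ± 0.070, SE; adjusted p = 0.227). Cyc1, cytochrome c1 of the same complex, lies outside the symbol rule and is given here after its values were seen. Its change was -0.10 ± 0.053 (SE; adjusted p = 0.174). Over the 6 fits that left out an array the count for complex III was 1 to 5. The calls of Uqcrq, Uqcr10 and Uqcrfs1 were lost without LysMCre/Cre replicate 1, without LysMCre/Cre replicate 2 and without KLF2∆/∆ replicate 1 (adjusted p of at most 0.0949, 0.13 and 0.142). Uqcr10 and Uqcrfs1 also lost theirs without LysMCre/Cre replicate 3, and Uqcr10 without KLF2∆/∆ replicate 3.

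**Figure D3:**
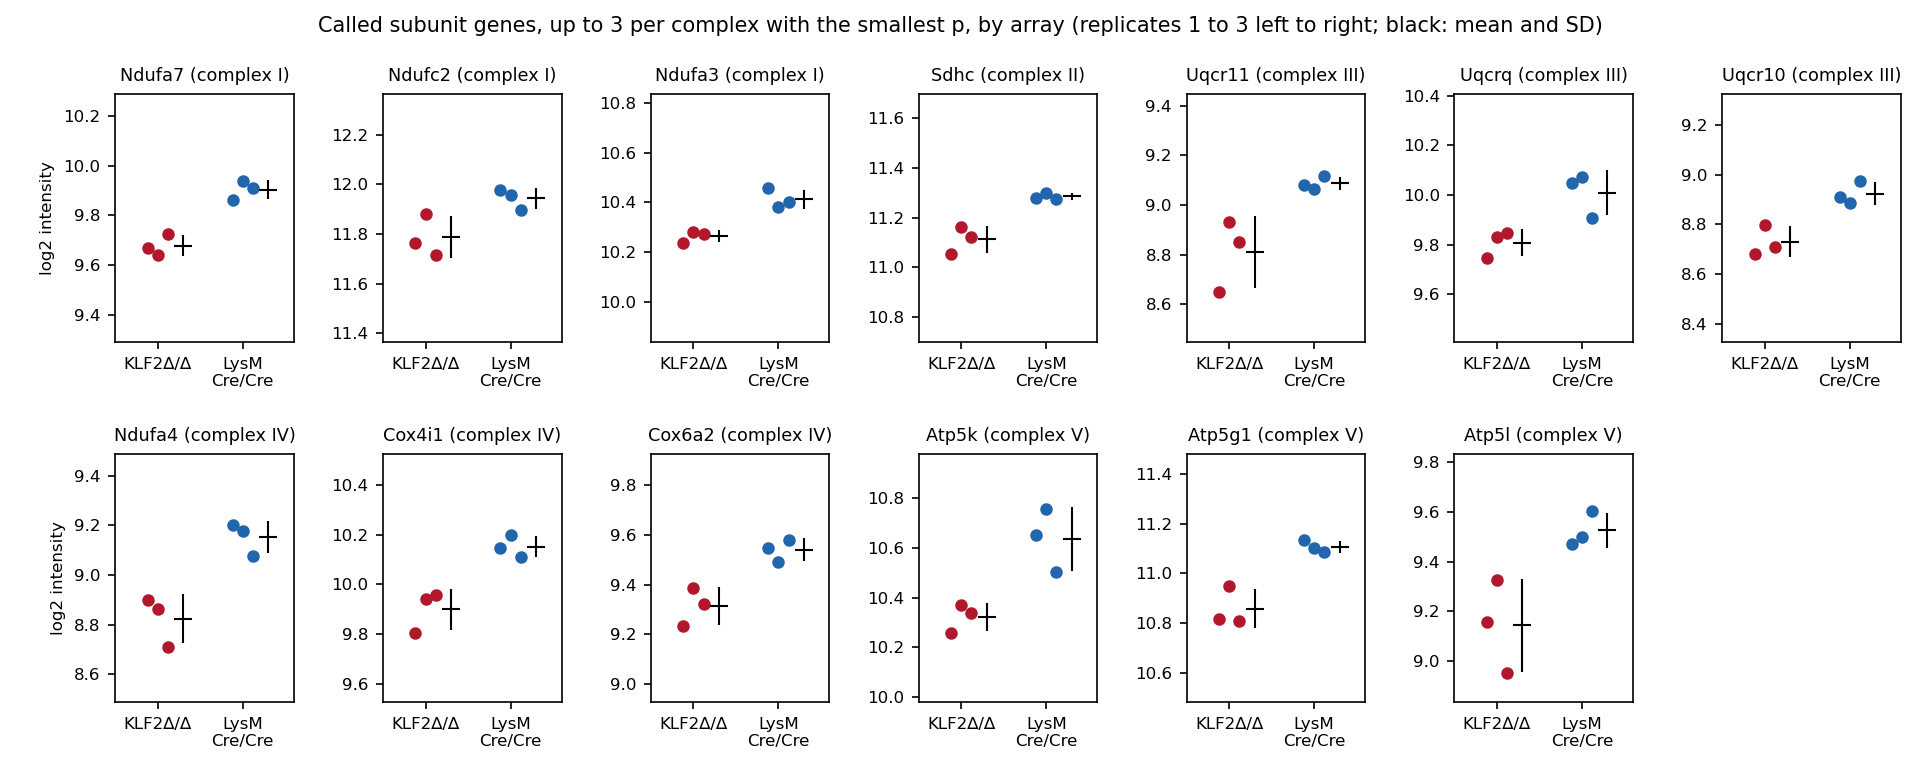
Log2 intensity (vertical axis, spanning 1 log2 unit in every panel) of called subunit genes in each array, up to 3 per complex with the smallest p, with the arrays labelled KLF2∆/∆ in red and the LysMCre/Cre arrays in blue, replicates 1 to 3 running left to right and black marks for the mean and SD. In the 13 panels drawn the red points lie below the blue points, with the widest red spread for Atp5l (8.95 to 9.32).

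Complex IV, cytochrome c oxidase, reduces oxygen to water, and its nuclear subunits surround a core encoded by the mitochondrial genome. Of its 16 tested genes 6 fell (37.5%, beside 16.2% of all tested genes). Changes below 0 numbered 15 (93.8%, beside 49.5% of all tested genes), with a median of -0.11. Without moderation of the variances 1 of the 16 was called. Ndufa4, named for complex I but known as a subunit of cytochrome c oxidase, gave the largest change. It measured 8.90, 8.86 and 8.71 in the arrays labelled KLF2∆/∆, against 9.20, 9.18 and 9.08 in the LysMCre/Cre arrays. Every array labelled KLF2∆/∆ lay below every LysMCre/Cre array, and Ndufa4 fell by 0.33 ± 0.068 (SE; adjusted p = 0.000831). Its relative Ndufa4l2, known as a hypoxia-induced gene, lay below the filter with 7.33, 7.32 and 7.45 in arrays labelled KLF2∆/∆ and 7.37, 7.26 and 7.39 in LysMCre/Cre arrays.

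Several complex IV subunits exist in more than 1 isoform, one of them widely expressed and the others tied to muscle, lung, testis or low oxygen. Cox4i1, the common form of subunit 4, measured 9.81, 9.94 and 9.96 in arrays labelled KLF2∆/∆ and 10.15, 10.20 and 10.11 in LysMCre/Cre arrays. It fell by 0.25 ± 0.058 (SE; adjusted p = 0.0021) with no overlap. Cox4i2, the form known from lung and hypoxic cells, measured 8.14, 7.92 and 8.24 in arrays labelled KLF2∆/∆ and 8.14, 7.98 and 8.18 in LysMCre/Cre arrays, which covered the same range. Its change was -0.0003 ± 0.083 (SE; adjusted p = 0.999).

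Both forms of subunit 6a fell. Cox6a1, the widely expressed form, measured 10.11, 10.18 and 10.13 in arrays labelled KLF2∆/∆ and 10.42, 10.34 and 10.20 in LysMCre/Cre arrays, and fell by 0.18 ± 0.059 (SE; adjusted p = 0.0227). Cox6a2, known from heart and skeletal muscle, measured 9.23, 9.39 and 9.32 in arrays labelled KLF2∆/∆ and 9.55, 9.49 and 9.58 in LysMCre/Cre arrays. It fell by 0.23 ± 0.061 (SE; adjusted p = 0.00796), and neither form overlapped between groups. Of subunit 6b, the common Cox6b1 measured 10.70, 10.85 and 10.72 in arrays labelled KLF2∆/∆ and 10.91, 10.99 and 10.85 in LysMCre/Cre arrays. It was the only called subunit gene whose groups overlapped, through replicate 2 of the arrays labelled KLF2∆/∆, and it fell by 0.16 ± 0.054 (SE; adjusted p = 0.0299). The testis form Cox6b2 measured 7.45, 7.37 and 7.62 in arrays labelled KLF2∆/∆ and 7.43, 7.69 and 7.48 in LysMCre/Cre arrays, close to the filter, with a change of -0.057 ± 0.087 (SE; adjusted p = 0.693).

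Subunits 7 and 8 gave no calls. Cox7a2, the widely expressed form of subunit 7a, measured 9.53, 9.61 and 9.57 in arrays labelled KLF2∆/∆ and 9.74, 9.69 and 9.70 in LysMCre/Cre arrays. These values did not overlap, and the change of -0.14 ± 0.057 (SE) missed the threshold (adjusted p = 0.0662). Cox7a2l, a gene linked to supercomplexes of complexes III and IV, measured 8.66, 8.52 and 8.56 in arrays labelled KLF2∆/∆ and 8.64, 8.71 and 8.68 in LysMCre/Cre arrays (change -0.096 ± 0.066, SE; adjusted p = 0.32). The muscle form Cox7a1 lay below the filter with 7.35, 7.59 and 7.51 in arrays labelled KLF2∆/∆ and 7.43, 7.49 and 7.34 in LysMCre/Cre arrays. For subunit 7b, Cox7b measured 11.70, 11.75 and 11.71 in arrays labelled KLF2∆/∆ and 11.71, 11.74 and 11.81 in LysMCre/Cre arrays, with overlap. The testis form Cox7b2 was dim in both groups, at 5.23, 5.23 and 5.38 in arrays labelled KLF2∆/∆ and 5.46, 5.72 and 5.42 in LysMCre/Cre arrays. Cox8a, the common subunit 8, measured 11.75, 11.92 and 11.83 in arrays labelled KLF2∆/∆ and 11.96, 11.95 and 11.90 in LysMCre/Cre arrays, overlapping through replicate 2 (change -0.10 ± 0.045, SE; adjusted p = 0.11). The muscle form Cox8b was the one tested complex IV gene with a change above 0, with 7.65, 7.69 and 7.62 in arrays labelled KLF2∆/∆ and 7.59, 7.55 and 7.59 in LysMCre/Cre arrays (0.075 ± 0.071, SE; adjusted p = 0.498). The testis form Cox8c measured 7.58, 7.38 and 7.51 in arrays labelled KLF2∆/∆ and 7.60, 7.58 and 7.68 in LysMCre/Cre arrays, again with overlap and near the filter.

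The remaining complex IV genes are single-form subunits. Cox5a, the subunit that binds a thyroid hormone metabolite, fell 1.15-fold (adjusted p = 0.0282). Cox5b, a zinc-binding subunit, had a change of -0.021 ± 0.042 (SE; adjusted p = 0.77). Cox6c had the brightest probe set of the complex, with 12.74, 12.79 and 12.72 in arrays labelled KLF2∆/∆ and 12.79, 12.82 and 12.81 in LysMCre/Cre arrays. They lay apart by a narrow margin, and the change of -0.058 ± 0.034 (SE) was not called (adjusted p = 0.227). Differences in change between isoforms were not tested. Over the fits that left out an array, 3 to 8 complex IV genes were called. The adjusted p of Cox6a2 was 0.0531 without LysMCre/Cre replicate 3. The calls of Cox5a, Cox6a1 and Cox6b1 were each lost without LysMCre/Cre replicate 1, without LysMCre/Cre replicate 2 and without KLF2∆/∆ replicate 1, with adjusted p of at most 0.149, 0.179 and 0.181. Cox5a and Cox6b1 also lost theirs without KLF2∆/∆ replicate 3, and Cox5a without LysMCre/Cre replicate 3. Of 13 mitochondrially encoded subunits, 2 had a probe set naming them alone in the annotation used here. COX2, which takes electrons from cytochrome c in complex IV, averaged 12.87 ± 0.14 in arrays labelled KLF2∆/∆ and 12.95 ± 0.087 in LysMCre/Cre arrays (SD, n = 3 each; change -0.080 ± 0.053, SE; adjusted p = 0.303). ND3, a membrane subunit of complex I, had a change of -0.051 ± 0.070 (SE; adjusted p = 0.654), and both overlapped between groups.

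Complex V, the ATP synthase, consists of a soluble F1 head that makes ATP, a central stalk, a membrane ring of c subunits that turns with the proton flow, and a peripheral stalk that holds the head still. Of its 17 tested genes 8 fell in the arrays labelled KLF2∆/∆ (47.1%, beside 16.2% of all tested genes). Changes below 0 numbered 15 (88.2%, beside 49.5% of all tested genes), with a median of -0.14. Without moderation of the variances 4 genes were called. The arrays labelled KLF2∆/∆ lay wholly below the LysMCre/Cre arrays for 10 genes (58.8%, beside 21.4% of all tested genes). The role groups below come from textbook knowledge and were assigned after the values had been seen.

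All 3 genes of the c ring fell (16.2% of all tested genes did). They encode an identical mature c subunit behind different import sequences. Atp5g1 measured 10.81, 10.95 and 10.81 in the arrays labelled KLF2∆/∆, against 11.13, 11.10 and 11.09 in the LysMCre/Cre arrays. The groups were well apart, and the gene fell by 0.25 ± 0.050 (SE; adjusted p = 0.000641). Atp5g2 measured 11.91, 11.98 and 11.91 in arrays labelled KLF2∆/∆ and 12.11, 12.14 and 12.06 in LysMCre/Cre arrays, and fell by 0.17 ± 0.041 (SE; adjusted p = 0.00272). Atp5g3 measured 11.02, 11.10 and 11.14 in arrays labelled KLF2∆/∆ and 11.30, 11.32 and 11.32 in LysMCre/Cre arrays. It fell by 0.23 ± 0.046 (SE; adjusted p = 0.000741). None of the 3 overlapped between groups, and each stayed called without any 1 array. Near-identical sequences among the 3 genes and their pseudogenes may share probes, so their values are not certain to be independent.

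Among 5 small membrane subunits, which sit beside the ring and help pair ATP synthases along the cristae, 3 fell (60%, beside 16.2% of all tested genes). Atp5l, subunit g, showed the largest change of all subunit genes. It measured 9.15, 9.32 and 8.95 in the arrays labelled KLF2∆/∆, against 9.47, 9.50 and 9.60 in the LysMCre/Cre arrays. The arrays labelled KLF2∆/∆ were spread over a wider range than the others but stayed below them, and Atp5l fell by 0.38 ± 0.078 (SE; adjusted p = 0.000739). Atp5k, subunit e, measured 10.26, 10.37 and 10.34 in arrays labelled KLF2∆/∆ and 10.65, 10.76 and 10.50 in LysMCre/Cre arrays. It fell by 0.32 ± 0.061 (SE; adjusted p = 0.000462), again with no overlap. Atp5mpl, a short proteolipid of the complex, fell 1.17-fold (adjusted p = 0.0115; 0.0942 without LysMCre/Cre replicate 2). Atp5j2, subunit f, had a change of -0.092 ± 0.049 (SE; adjusted p = 0.178), and Atp5md one of 0.058 ± 0.084 (SE; adjusted p = 0.677).

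In the F1 head and central stalk 2 of 5 genes fell (40%, beside 16.2% of all tested genes). Atp5c1, the gamma subunit that forms the rotating axle, fell 1.15-fold (adjusted p = 0.00428). Atp5a1, the alpha subunit, fell 1.10-fold (adjusted p = 0.0159), a call lost without LysMCre/Cre replicate 1 or 2 (at most 0.0813). Atp5b, the catalytic beta subunit, had a change of -0.051 ± 0.037 (SE; adjusted p = 0.35). Atp5d, the delta subunit of the stalk, had the brightest probe set of the complex. It measured 12.91, 12.97 and 12.93 in arrays labelled KLF2∆/∆ and 13.01, 12.91 and 12.92 in LysMCre/Cre arrays, with full overlap and a change of -0.013 ± 0.036 (SE; adjusted p = 0.842). By limma 0 of the 4 peripheral stalk genes were called (Atp5pb, Atp5h, Atp5j and Atp5o), 1 was lower at an unadjusted p below 0.05, and 0 were called without moderation of the variances. Atp5o, which joins that stalk to the head, came nearest to the threshold, with a change of -0.15 ± 0.056 (SE; adjusted p = 0.0533). The count for complex V was 6 to 10 over the fits that left out an array.

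Of the 82 genes, 67 had a promoter in the RefSeq table for GRCm38.p6, a window of 250 bases before and 50 after the annotated start, and 17 of these were called genes. The windows were searched on both strands for letters bound by factors known to control respiratory genes: GCGCATGCG for NRF1, CCGGAAG for ETS factors such as GABPA, ATGGCGGC for YY1 and TCAAGGTCA for ERR alpha. A gene was counted when any of its promoters held the letters. The NRF1 letters were found for 8 of 67 subunit genes (11.9%), 3.77% of tested genes and 1.95% of all 27025 genes with a promoter. They were found for 5 of 17 called genes (Atp5g2, Atp5k, Atp5l, Cox6a1 and Uqcr11) and 3 of 47 tested genes not called (Ndufa8, Ndufa11 and Uqcrc1). The ETS letters were found for 25.4% of subunit genes, 29.4% of the called and 25.5% of those not called. The shares were 18.2% for tested genes and 9.93% for all genes with a promoter. The YY1 letters stood at 8.96% of subunit genes, 5.2% of tested genes and 2.6% of all genes with a promoter. They were in 1 of the 17 called genes (5.88%) and 5 of the 47 not called (10.6%). The ERR alpha letters stood at 2.99%, 0.378% and 0.466%, with 1 called gene (Atp5g3) and 1 gene not called (Sdhd, change 0.070). A match is a run of letters and no evidence of binding, and these shares were not tested.

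The stretches around the matches are shown for the 5 called genes with the NRF1 letters and for Atp5g3, the called gene with the ERR alpha letters. These genes were picked by their call, and the carriers that were not called are left out. Each is from RefSeq, build GRCm38.p6, minus strand, read 5′ to 3′ in the direction of the gene. Capitals mark the matched letters, and where both strands matched at overlapping positions the capitals cover both. The match began 42 bases before the annotated start of Atp5g2 (chr15:102671044-102671125), 50 before that of Atp5k (chr5:108434404-108434485), 241 before that of Atp5l (chr9:44920939-44920992), 162 before that of Cox6a1 (chr5:115349075-115349156), 5 before that of Uqcr11 (chr10:80406782-80406862) and 52 before that of Atp5g3 (chr2:73911334-73911414). The second run of capitals in Atp5l is an ETS match.
Atp5g2: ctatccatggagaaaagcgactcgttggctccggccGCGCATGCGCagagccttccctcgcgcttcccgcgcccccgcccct
Atp5k: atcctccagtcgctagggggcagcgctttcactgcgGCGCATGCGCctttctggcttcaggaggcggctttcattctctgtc
Atp5l: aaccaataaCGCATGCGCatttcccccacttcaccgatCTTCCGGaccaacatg
Cox6a1: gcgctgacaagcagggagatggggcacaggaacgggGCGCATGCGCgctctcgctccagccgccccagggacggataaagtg
Uqcr11: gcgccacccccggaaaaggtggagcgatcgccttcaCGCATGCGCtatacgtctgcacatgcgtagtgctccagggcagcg
Atp5g3: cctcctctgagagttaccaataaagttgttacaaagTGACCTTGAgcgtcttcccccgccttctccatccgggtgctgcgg
Of the 8 genes with the NRF1 letters, the 5 called had changes between -0.17 for Atp5g2 and -0.38 for Atp5l. The 3 not called had -0.074 for Ndufa11, -0.13 for Ndufa8 and 0.028 for Uqcrc1. The call itself divided these genes and goes with larger changes, so the contrast cannot show a part of the letters.

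Subunit genes often have processed pseudogenes elsewhere in the genome, and some probe sets assigned to them may read such copies. Identifiers of the probe sets run along the genome, and 97.1% of those with a clear neighbourhood lay among genes of their own chromosome. The brightest probe set of 8 subunit genes did not (Atp5g2, Atp5l, Atp5md, Atp5pb, Cox6c, Cox7a2l, Cox7b and Ndufb11). With the probe set on the gene's own chromosome in its place, Atp5l fell by 0.41 ± 0.071 (SE; adjusted p = 0.000161) and Atp5g2 by 0.19 ± 0.041 (SE; adjusted p = 0.0013). The other 6 genes were not called with either probe set, although the change of Atp5pb became 0.035 and that of Cox7b 0.050. All 6 probe sets of Atp5l had negative changes, between -0.43 and -0.31. Uqcr11 had a second probe set, placed on another chromosome, with a change of -0.14 and overlapping groups.

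**Figure D4:**
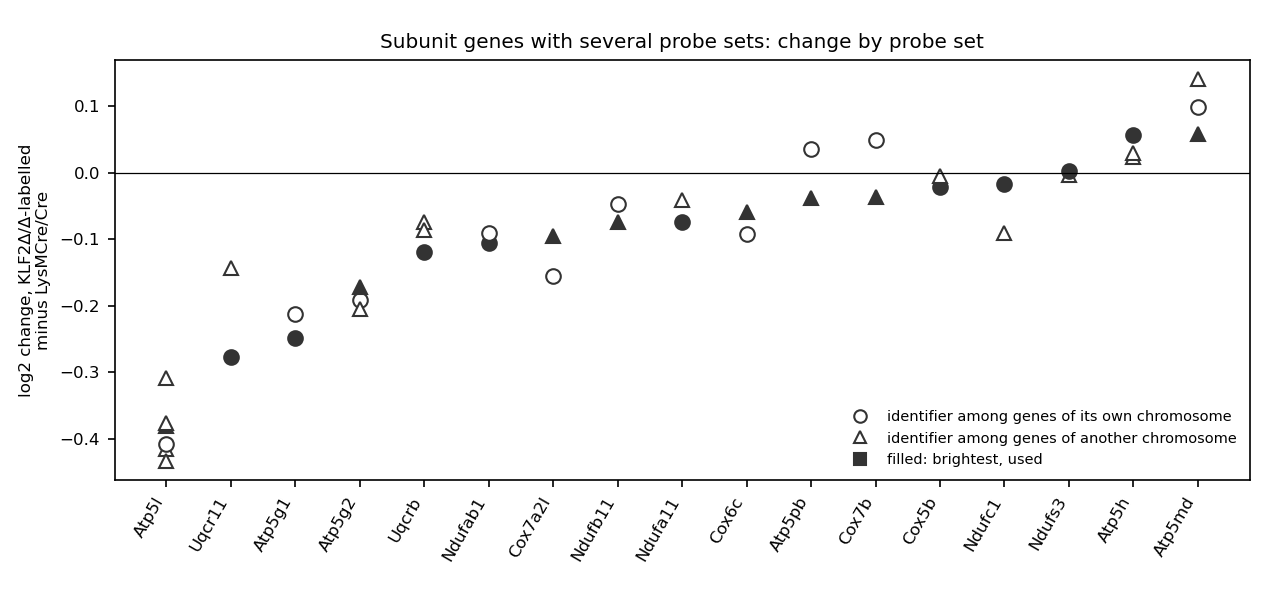
Log2 change (vertical axis, KLF2∆/∆-labelled minus LysMCre/Cre) of every single-gene probe set of the 17 subunit genes that have several, circles for probe sets lying among genes of the gene's own chromosome, triangles for those lying elsewhere and filled symbols for the brightest one, used in the comparison. All 6 probe sets of Atp5l lie between -0.43 and -0.31, and Atp5pb and Cox7b have 1 probe set on either side of 0.

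Falls were called at every level of probe set brightness. Among 15 subunit genes with a mean between 7.49 and 9, 5 fell (median change -0.18). Of all tested genes in that range 14.3% fell (median -0.0094). Of 24 subunit genes between 9 and 10, 6 fell (median -0.13), beside 19.1% of all tested genes (median -0.0042). Of 21 between 10 and 11, 6 fell (median -0.094), beside 19.2% of all tested genes (median 0.022). Among the 18 above 11, 6 fell (median -0.085), beside 15.6% of all tested genes (median 0.067).

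Genes for the proteins that assemble the complexes gave calls in both directions, beside 13.6% of all tested genes called higher and 16.2% called lower. Of 11 tested complex I assembly factors 1 rose and 0 fell by limma, with a median of -0.013, and 1 was lower at an unadjusted p below 0.05. Without moderation of the variances 0 were called. Foxred1, a complex I assembly factor, rose by 0.20 ± 0.063 (SE; adjusted p = 0.0187; at most 0.104 with an array left out). Of 26 tested assembly factors for complexes II to V, 4 rose and 2 fell (7.69%), with a median of 0.049. With an array left out 2 to 5 rose, fewest without LysMCre/Cre replicate 2, and 1 to 3 fell, and without moderation of the variances 2 rose and 0 fell. Sco1, a copper chaperone for complex IV, measured 9.57, 9.46 and 9.44 in arrays labelled KLF2∆/∆ and 9.07, 8.87 and 9.14 in LysMCre/Cre arrays. It rose by 0.46 ± 0.071 (SE; adjusted p = 3.94e-05) with no overlap. Coa5, a complex IV assembly factor, rose by 0.18 ± 0.043 (SE; adjusted p = 0.00305), and Ttc19, which acts in complex III, fell by 0.28 ± 0.068 (SE; adjusted p = 0.00346). The difference between assembly factors and subunits was not tested.

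Electron carriers and other entry points to the chain gave 3 lower (15%) and 1 higher of 20, with a median of -0.088. Over all tested genes 16.2% were called lower and 13.6% higher. The counts for the carriers were 1 to 3 lower and 1 to 2 higher with an array left out. They were 3 lower and 0 higher without moderation of the variances. Etfb, part of the flavoprotein that passes on electrons from fatty acid oxidation, fell by 0.24 ± 0.057 (SE; adjusted p = 0.00266). Aifm1, which supports complex assembly, and Gpd2, the glycerol phosphate dehydrogenase, fell by 0.20 and 0.13 (adjusted p = 0.0261 and 0.0321; at most 0.0922 and 0.149 with an array left out). Coq5, an enzyme of ubiquinone synthesis, rose by 0.32 ± 0.066 (SE; adjusted p = 0.000879). Of 17 tested regulators of mitochondrial gene expression 1 rose and 1 fell (5.88%, against the 16.2% of all tested genes), with a median of -0.016. The count lower was 5 without KLF2∆/∆ replicate 2, and the count higher 0 without LysMCre/Cre replicate 1 or KLF2∆/∆ replicate 1. Without moderation of the variances 2 were lower and 0 higher. Pprc1, a coactivator of the PGC-1 family, measured 9.12, 9.29 and 9.17 in arrays labelled KLF2∆/∆ and 9.48, 9.62 and 9.49 in LysMCre/Cre arrays. It fell by 0.34 ± 0.065 (SE; adjusted p = 0.000403) with no overlap, while Tfb1m, a ribosomal RNA methyltransferase of mitochondria, rose by 0.21 ± 0.070 (SE; adjusted p = 0.0277; at most 0.157 with an array left out).

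Lists of other mitochondrial proteins had shares of falls above the 16.2% of all genes. In the tricarboxylic acid cycle and pyruvate entry 8 of 16 fell (median -0.13). The count was 2 without moderation of the variances and 4 to 9 with an array left out, lowest without LysMCre/Cre replicate 2 or KLF2∆/∆ replicate 1. Suclg2, a subunit of succinyl-CoA ligase, fell by 0.44 ± 0.072 (SE; adjusted p = 7.03e-05), Mdh2, malate dehydrogenase, by 0.27 ± 0.046 (SE; adjusted p = 0.00013) and Dlst, of the oxoglutarate dehydrogenase complex, by 0.23 ± 0.059 (SE; adjusted p = 0.00451). Of 24 carriers, porins and chaperones of the mitochondrial envelope 10 fell (median -0.11; 5 without moderation of the variances). Slc25a4, an ADP/ATP carrier that exports the product of complex V, measured 9.66, 9.71 and 9.77 in arrays labelled KLF2∆/∆ and 10.21, 10.10 and 10.17 in LysMCre/Cre arrays. It fell by 0.44 ± 0.057 (SE; adjusted p = 4.25e-06). The matrix chaperonin genes Hspd1 and Hspe1 fell by 0.46 ± 0.063 (SE; adjusted p = 1.2e-05) and 0.52 ± 0.089 (SE; adjusted p = 0.00014). Uncoupling genes were not tested, because Ucp1 and Ucp3 lay below the filter and Ucp2 had no probe set naming it alone. Among 8 tested genes for inhibition of the ATP synthase and peroxide or superoxide handling 3 fell (median -0.14; 2 without moderation of the variances). These were Gpx4, a lipid peroxide reductase, by 0.42 ± 0.055 (SE; adjusted p = 5.3e-06), Txn2, mitochondrial thioredoxin, by 0.22 ± 0.054 (SE; adjusted p = 0.00398), and Atpif1, the inhibitor of complex V, by 0.17 ± 0.036 (SE; adjusted p = 0.000865).

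**Figure D5:**
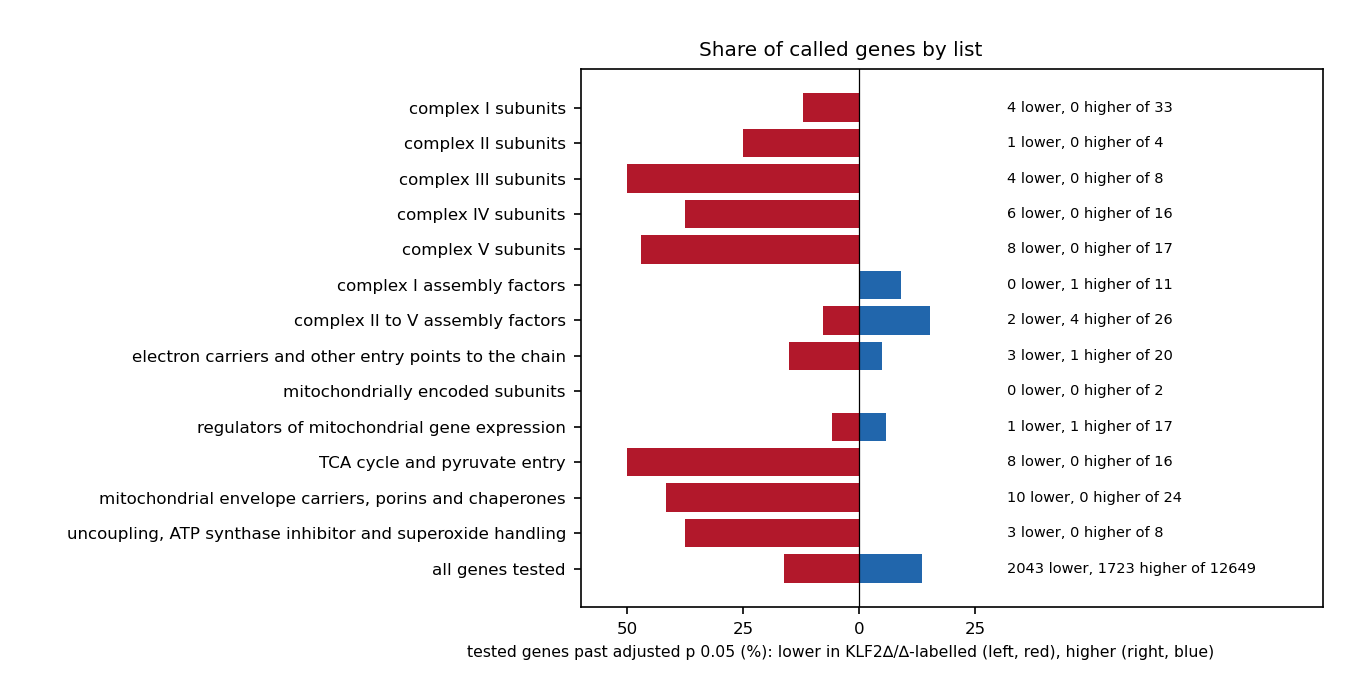
Share of tested genes (horizontal axis, %) called lower in the arrays labelled KLF2∆/∆ (red, left of 0) and higher (blue, right of 0) at an adjusted p below 0.05, for the 5 complexes, the pathway lists and all tested genes, with the counts written beside the bars. Falls range up to 8 of 16 tricarboxylic acid cycle genes and 4 of 8 complex III genes. The assembly factors for complexes II to V show 4 rises and 2 falls of 26, beside 13.6% and 16.2% of all tested genes.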

How the data were processed

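Gene expression was measured on 6 Affymetrix arrays, 3 labelled KLF2∆/∆ and 3 LysMCre/Cre, from 150 ng of RNA each, per the labels. The deposited values are log2 intensities per probe set. The submitters' notes on processing name Affymetrix Expression Console and RMA (background correction, quantile normalization and probe summary). A second deposited table gives linear intensity, whose log2 values differed by at most 5.04e-05. The sources used here give no versions, build or scan dates, so batches were not tested. RMA makes array distributions alike, so a shift of most genes would not show.

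Of 35557 probe sets, 6613 with the lowest identifiers were taken as controls. Of the other 28944, 21789 name 1 gene in the platform annotation, 1621 several and 5534 none, and 21698 of the first matched RefSeq (GRCm38.p6). For each of 19938 genes the single-gene probe set with the highest mean was used (999 genes had several), and genes below the 40th percentile (log2 7.49) were left out. The test was limma's (version 3.58.1, R 4.3.3: lmFit, eBayes with intensity trend, two-sided, Benjamini-Hochberg adjustment over 12649 genes), without a block. The prior added 15.4 degrees of freedom, the median standard error was 0.068, and the number of arrays limits the precision. Alternatives covered scaling, weights, variance model, filter, probe sets, table, threshold, block and leaving out each array. Figures were drawn with matplotlib 3.10.9.

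Members, pathway lists, cell marker lists and motifs were chosen with earlier results of these data known. Full values are given for up to 3 called genes per complex with the smallest p, the largest change, all paralogous isoforms and the brightest gene per complex. From each pathway list, called genes are named where 5 or fewer were called and otherwise the 3 with the smallest p. Other genes are summarised or named with fewer values.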

Additional observations from a re-analysis of the deposited data

How the results depend on the processing

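Counts of subunit genes called lower ranged from 18 to 30 over another quantile normalization, median centring, array weights, no intensity trend, no filter, a filter at the 60th percentile, the mean of probe sets, the linear table, the own-chromosome probe set (chosen after seeing the data) and subunits of assembled complexes only, and the median change over all alternatives lay between -0.15 and -0.10. Without moderation of variances 9 subunit genes were called lower of 2124 called genes in all, and Klf2 stayed at 0.26 but missed the threshold. At an adjusted p of 0.01, 12 were lower, by the construction of the threshold. With an array left out the count lower was 13 to 34 and the count higher 0 to 1. Deviations of same-numbered arrays from their group means correlated at -0.091, 0.115 and -0.049, and not every array correlated best with its own number, so the numbers were not taken as pairs. With the replicate number as a block, 27 subunit genes were lower and 3824 genes were called in all. Of 414 values for called genes under alternatives 337 kept direction and call, and 0 changed direction. Only Atp5g1, Atp5g2, Atp5g3, Ndufa7 and Sdhc were called under each of 18 alternatives. The cause of lost calls was not tested.

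Direction changed for uncalled genes near 0. Quantile normalization gave 0.0045 for Atp5d, 0.024 for Cox4i2, 0.0034 for Ndufc1 and -0.0082 for Uqcrc1. Median centring gave 0.0065 for Cox4i2. Array weights gave 0.015 for Cox4i2, -0.011 for Ndufb7, -0.0031 for Ndufb9, -0.0020 for Ndufs3 and -0.011 for Ndufs8. The own-chromosome probe set gave 0.035 for Atp5pb and 0.050 for Cox7b, and the mean of probe sets 0.0066 for Cox7b. Leaving out an array gave ranges of -0.033 to 0.044 for Lyz2, -0.15 to 0.052 for ND3, -0.031 to 0.019 for Atp5d, -0.050 to 0.19 for Atp5md, -0.10 to 0.046 for Atp5pb, -0.069 to 0.089 for Cox4i2, -0.045 to 0.0004 for Cox5b, -0.12 to 0.023 for Cox6b2, -0.12 to 0.019 for Ndufb11, -0.17 to 0.043 for Ndufb6, -0.024 to 0.052 for Ndufb7, -0.018 to 0.016 for Ndufb9, -0.079 to 0.066 for Ndufc1, -0.030 to 0.031 for Ndufs3, -0.031 to 0.052 for Ndufs6, -0.030 to 0.059 for Ndufs8, -0.031 to 0.059 for Ndufv3 and -0.0081 to 0.070 for Uqcrc1. Probe sets near the filter, such as those of Cox6b2, Cox8b and Cox8c, lie where background limits what a change shows.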

Other observations

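Some subunit genes outside the tested set are covered by probe sets that name several genes. The 3 probe sets shared by Cox7c and Gm12338 had changes between -0.088 and -0.083 in the arrays labelled KLF2∆/∆, and 2 of them did not overlap between groups. The 2 probe sets shared by Ndufb4 and Ndufb4b had changes of -0.041 and -0.044, with overlapping groups. These values were not tested, because a probe set that names several genes cannot be assigned to 1 of them.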
